A study of Homo sapiens with 21 samples.

Results

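The genes described here encode potassium channels (*KCN* genes), voltage-gated sodium channels (*SCN* genes) and hyperpolarization-activated cation channels (*HCN* genes). They were chosen by gene symbol, as every transcript whose symbol follows the *KCN*, *SCN* or *HCN* naming pattern in 6 deposited tables of differential expression. The tables list 105 such transcripts of 63 genes, among 21537 transcripts of 11851 genes in all. GENCODE 44 annotates 114 protein-coding genes under these symbols, and 52 of them are listed in no table.

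RNA was sequenced from PGP1, an established human iPSC line, during directed differentiation into cardiomyocytes. Wild-type cells were collected at 5 stages, with 3 libraries each. The stages were iPSC, mesoderm (M), the cardiac mesoderm that follows it (CMes), progenitors of the heart lineage (CP), and beating cardiomyocytes (CM). CMs of 2 *UBE2B-/-* lines, *UBE2B-/-1* and *UBE2B-/-2*, gave 3 libraries each. *UBE2B* encodes a ubiquitin-conjugating enzyme that acts in the monoubiquitylation of histone H2B. Differentiation used the WNT activator CHIR99021 followed by the WNT inhibitor IWP4 in all differentiating cells, and beating CMs were enriched with lactate in place of glucose. Each *UBE2B-/-* line was grown from a picked colony after Cas9 editing in an experiment of its own, so a line is 1 clone, and the RNA came from its beating cultures. Per the study's methods, more cells were plated for these lines than for wild type before differentiation. The study reports that the lines formed beating CMs less efficiently, and that only part of their beating cells stained for the cardiomyocyte protein TNNT2. The part of these differences in the line comparisons was not tested. Replicates came from plates whose differentiation was begun separately.

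The beat of a cardiomyocyte is built from the currents of these channels. Sodium channels carry the fast upstroke of the action potential, voltage-gated potassium channels repolarize the cell, and inward rectifiers and leak channels hold the resting potential. HCN channels open on hyperpolarization and carry the pacemaker current of the sinoatrial node. Pore-forming subunits work with accessory subunits that change their gating or their transport to the membrane.

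The tables hold 1 row per transcript and comparison, from the Wald test in Sleuth on counts that Kallisto estimated, and leave out every transcript whose q-value was above 0.05. Values of single libraries are not part of them, so sequencing depth is unknown and each group is described by its mean. Group means of estimated counts were computed back from the fitted effect and the overall mean, on a log scale with a pseudocount of 0.5 (n = 3 libraries in every group). Changes are given as log2 values with the standard error of the fit. Calls needed both listing and a log2 change of 0.84 or more in size, a 1.79-fold change. The smallest called change of a channel transcript was 0.87 and the largest listed change below the limit was 0.79. A transcript that is not listed did not reach the q-value limit, or was too low to be tested, and the tables do not tell these apart. For this reason, the number of channel transcripts tested is not known.

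Channel transcripts were called at every transition, and in the largest number from CP to CM, where calls over all transcripts were also most frequent. From iPSC to M, 7 channel transcripts of 6 genes were lower and 3 of 3 genes were higher, where 1.62% of all 68446 transcripts tested were called lower and 1.24% higher. From M to CMes, 11 were lower and 16 higher (2.65% and 3.81% of all 70285). At the step from CMes to CP the counts were 24 lower and 24 higher (2.63% and 3.8% of all 71328). From CP to CM, 24 transcripts of 17 genes were lower and 42 of 28 genes were higher (6.99% and 8.25% of all 69937). The higher calls were 63.6% of the channel calls and 54.1% of all calls from CP to CM. Over the calls of both directions, the median absolute log2 change was 3.62 for channel transcripts, against 2.42 over all called transcripts, and the median standard error of listed transcripts was 0.84 against 0.38. Adjacent transitions share the 3 libraries of a stage, so their values are given side by side and are not compared by a test. The calls rest on the normal distribution that the Wald test uses. With a t distribution on 4 residual degrees of freedom, 1 of the 66 channel calls from CP to CM remained, and 0 at the earlier transitions, although 61 of the 66 had an unadjusted p under 0.05.

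**Figure D1:**
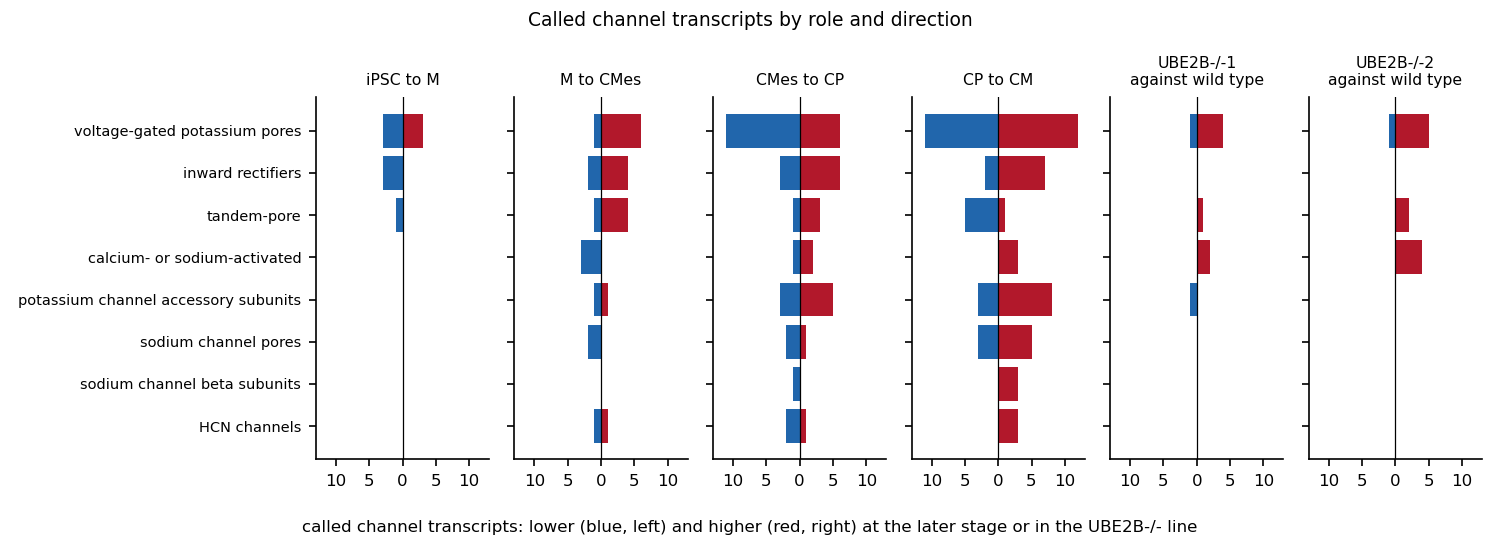
Number of called channel transcripts (horizontal axis) in each role group (rows) for the 4 stage transitions and for both *UBE2B-/-* lines, with lower transcripts to the left in blue and higher ones to the right in red. From CP to CM all 3 sodium beta subunit transcripts were higher, whereas 5 of 6 tandem-pore transcripts were lower.

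The pacemaker channel *HCN4* rose at the last transitions. *HCN4*, the principal HCN channel of the sinoatrial node (chr15:73319859-73368958 in GRCh38), had a mean of 653 estimated counts at CP and 4856 at CM. This is a log2 change of 2.89 (standard error 0.37, q = 3.18e-13). The gene had already risen from 400.4 to 738 between CMes and CP, by 0.88 (standard error 0.18, q = 1.86e-05). The *HCN2* transcript was highest at M among the listed stages. It went from 257 at M to 119 at CMes (log2 change -1.10, standard error 0.23), and its change of 0.79 from iPSC to M lay under the limit of the call.

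*TBX3*, a transcription factor of the sinoatrial node, rose with *HCN4* at CP and fell at CM. It went from 813 to 3525 estimated counts between CMes and CP, and then fell by 4.15 on the log2 scale (standard error 0.30) to 176 at CM. Among the other sinoatrial markers examined, *ISL1* and *TBX18* were called from CMes to CP, both higher, and neither these nor *SHOX2* was listed from CP to CM.

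Sodium channel pores moved in both directions. *SCN9A* was lower at CMes than at M with both listed transcripts, and ENST00000409672.5 was at 0 estimated counts at CP and 75.2 at CM, at least 25.1-fold higher against a floor of 3 counts per library. *SCN4A*, the sodium channel of skeletal muscle, fell from 176 to 59.3 between CMes and CP and further from 52.5 to 0.368 between CP and CM. *SCN7A*, an atypical sodium channel, rose at CP (2.02 to 126 estimated counts) and fell at CM, where ENST00000619410.4 had a mean of 0 (log2 change -7.81, standard error 1.10, at least 37.2-fold lower).

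*SCN8A*, a sodium channel best known from neurons, was listed with different transcripts at different transitions. ENST00000545061.5 fell from 562 to 229 estimated counts between CMes and CP (-1.30, standard error 0.19, q = 5.72e-10). ENST00000354534.10 rose from 1.21 to 81.8 between CP and CM (5.59, standard error 2.03, q = 0.0343), with a standard deviation of 2.48 between replicates. The latter has 27 exons and the former 26. The exon found in the rising transcript alone is exon 21 of 27, 123 bases at chr12:51780649-51780771 on the plus strand of hg38, and it is shown because it sets these transcripts apart.
*SCN8A* exon: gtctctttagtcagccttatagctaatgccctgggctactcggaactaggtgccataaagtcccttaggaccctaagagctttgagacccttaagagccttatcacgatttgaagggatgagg
A change of exon use was not tested, since neither transcript was listed at the other's transition.

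Sodium channel beta subunits, which tune the gating and the surface level of the pore, were higher at CM where called. *SCN2B* went from 4.05 to 47.8 estimated counts (3.41, standard error 0.98) and *SCN3B* ENST00000299333.7 from 23.1 to 120.2 (2.35, standard error 0.68). The other *SCN3B* transcript was at 0 at CP and 45.6 at CM. *SCN4B* had moved earlier and the other way, from 46.9 at CMes to 0.932 at CP (-5.05, standard error 1.32).

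The potassium channels that end the cardiac action potential were higher in CMs. *KCNQ1*, the pore of the slow delayed rectifier, rose from 29.5 to 353 estimated counts with ENST00000155840.10 (3.56, standard error 0.49, q = 2.35e-11) and from 3.03 to 176 with ENST00000335475.5 (5.65, standard error 1.54). These transcripts share 14 of 16 exons. *KCNE1*, its accessory subunit, was not listed. A transcript of *KCNE1B*, a near-identical copy of *KCNE1* that GENCODE 44 marks as an artifact, went from 0.658 to 40.5 between CMes and CP. Reads of the copies cannot be told apart with certainty, so the gene behind this change is uncertain. *KCNQ1* is overlapped by the antisense RNA *KCNQ1OT1*, which was not listed, and whether the quantification used the strand is not given in the sources used here.

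*KCNH2*, which encodes the hERG pore of the rapid delayed rectifier (chr7:150944961-150978321, minus strand), was higher at CM with all 4 listed transcripts. The coding transcript ENST00000262186.9, from the upstream start site, went from 174 to 875 estimated counts (2.33, standard error 0.35, q = 9.97e-10). The coding transcript ENST00000330883.8, from the downstream start site, went from 86.7 to 617 (2.82, standard error 0.77, q = 0.00217). The highest mean belonged to ENST00000532957.5, which keeps part of an intron and is annotated without a coding frame. It went from 182 to 1387 (2.92, standard error 0.33, q = 1.67e-17), and it was the only *KCNH2* transcript called from CMes to CP, where it rose from 79.2 to 206. A second such transcript, ENST00000473610.5, went from 3.15 to 81.7 at CM.

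The *KCNH2* start sites and the kept intron are shown because these transcripts differ in their start and end, and because the form with the kept intron was called in the *UBE2B-/-* lines, as described later. The windows hold the 250 bases before each start site, from RefSeq on GRCh38.p14, minus strand, at chr7:150978322-150978571 and chr7:150955805-150956054, with CpG pairs in capitals. The upstream window is 77.2% GC with 29 CpG pairs and the downstream window 74.4% GC with 16, while the medians over the windows of 27305 genes were 58% and 11.
upstream start: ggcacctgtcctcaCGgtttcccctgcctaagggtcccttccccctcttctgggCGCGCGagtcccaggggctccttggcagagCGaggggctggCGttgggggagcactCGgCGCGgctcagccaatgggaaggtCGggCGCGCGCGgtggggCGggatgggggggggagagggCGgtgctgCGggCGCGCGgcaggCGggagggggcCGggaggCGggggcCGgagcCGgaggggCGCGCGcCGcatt
downstream start: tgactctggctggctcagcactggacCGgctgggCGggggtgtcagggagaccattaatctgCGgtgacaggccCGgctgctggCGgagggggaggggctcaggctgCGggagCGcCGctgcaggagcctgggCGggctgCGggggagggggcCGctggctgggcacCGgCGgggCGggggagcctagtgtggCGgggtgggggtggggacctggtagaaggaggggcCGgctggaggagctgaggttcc
ENST00000532957 follows the upstream form through its shared exons and then reads 753 bases beyond the exon at chr7:150950168-150950420, into an intron of 1118 bases. At that junction (chr7:150950108-150950207, hg38, minus strand), capitals mark the last 40 bases of the exon and lower case the first 60 bases of the kept intron.
exon end and kept intron: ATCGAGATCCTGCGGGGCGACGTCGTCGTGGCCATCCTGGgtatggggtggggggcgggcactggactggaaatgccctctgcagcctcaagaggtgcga

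Channels of the transient outward and ultrarapid currents were divided. *KCNA4*, a transient outward pore, went from 6.55 to 99.0 estimated counts (3.82, standard error 0.77), and *KCNA5*, the ultrarapid atrial channel, from 6.21 to 101 (3.92, standard error 0.76). *KCNIP2*, the accessory subunit of the Kv4 channels, went from 33.7 to 233 (2.77, standard error 0.90). The Kv4 pores themselves were not listed as higher. *KCND2* fell from 180.3 to 10.8 between CMes and CP (-4.0, standard error 0.47) and was not listed from CP to CM. *KCND3* fell from 39.9 to 5.36 between iPSC and M, rose from 21.7 to 85.3 between CMes and CP, and was also not listed from CP to CM. *KCND1*, also a Kv4 pore, fell from 96.2 to 15.6 between CP and CM (-2.59, standard error 0.65).

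Further voltage-gated pores were divided. *KCNH7*, an *ERG*-family pore, went from 0.519 at CP to 70.3 at CM and *KCNQ3* ENST00000621976.1 from 10.3 to 210.3. *KCNH1* fell from 126 to 13 at the same transition after a rise from 5.92 to 143 between CMes and CP. The electrically silent subunits *KCNG1*, *KCNG3* and *KCNS3*, which form no channel alone and modify other pores, were lower at CM with their listed transcripts. *KCNS3* ENST00000403915.5 was at 42.0 at CP and had a mean of 0 at CM, at least 14.0-fold lower. *KCNS3* ENST00000304101.9 was not listed at this transition, so a mean of 0 for the gene was not shown.

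Inward rectifiers included the largest change relative to its error. *KCNJ5*, a subunit of the acetylcholine-activated potassium channel of the atrium (chr11:128891356-128921163), rose with ENST00000529694.6 from 235 estimated counts at CP to 3004 at CM. This is 3.67 on the log2 scale (standard error 0.32, q = 1.03e-28), the largest ratio of change to standard error among channel transcripts at this transition. The same transcript had risen from 27.4 to 626 between M and CMes (4.49, standard error 0.38) and fallen to 266 at CP (-1.25, standard error 0.16). *KCNJ3*, the other subunit of that channel, went from 1.40 to 94.0 at CM (5.63, standard error 1.94, q = 0.0238), with a standard deviation of 2.38 between replicates. *KCNJ2*, the main pore of the classical inward rectifier, had fallen from 155 to 81.1 between iPSC and M and rose from 87.6 to 259 at CM (1.56, standard error 0.26). *KCNJ12*, another pore of that current, rose from 31.6 to 187 at CMes and fell to 38.6 at CP, and its reads may be shared with its near-identical copy *KCNJ18*. *KCNJ4*, a further inward rectifier, rose at each of the last 3 transitions, with 6.11 at M, 41.9 at CMes, 114 at CP and 197 at CM. *KCNJ10* was listed from M to CMes, going from 39.6 there to 0.208 at CMes. The ATP-sensitive pores *KCNJ8* and *KCNJ11* rose at CM, to 200.2 and 81.3. *KCNJ16* rose at CP, and some of its transcripts fell at CM. ENST00000392670.5 was at 0 at CMes, at 81.0 at CP in that table and 71.7 in the next, and at 0 at CM. ENST00000392671.5, at 85.9 at CP, was not listed from CP to CM.

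Among tandem-pore channels, which carry the background leak, a single gene was higher at CM. *KCNK3*, which encodes the acid-sensitive channel TASK-1, went from 21.7 to 427 estimated counts (4.27, standard error 0.80, q = 1.94e-06). *KCNK12* fell from 406 to 3.53 (-6.66, standard error 0.80, q = 7.28e-15) after a rise at both earlier transitions, from 40 at M to 217 at CMes and 459 at CP. *KCNK13* also rose at CMes and at CP and fell at CM, with 7.63 at M, 58.2 at CMes, 176 at CP and 62.0 at CM. *KCNK5* was highest in iPSCs. It had 1520.2 estimated counts there and 383 at M (-1.99, standard error 0.15, q = 7.18e-36), and later fell from 650.3 to 284 at CP and from 251 to 16.7 at CM. *KCNK1* fell from 310.4 to 69.4 at CM.

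*KCNN2*, a calcium-activated channel of small conductance, was the sole gene of its role group called from CP to CM, with 3 transcripts higher. ENST00000512097.8 went from 36.9 to 374 estimated counts (3.32, standard error 0.35) and ENST00000631899.2 from 121 to 263 (1.12, standard error 0.34). *KCNN3* was not listed. *KCNMA1*, the pore of the large-conductance calcium-activated channel, was listed with ENST00000286627.10 at 77.8 at M, 0.152 at CMes and 76.5 at CP. The technical variance of this transcript was 673% of the residual variance from M to CMes and 849% from CMes to CP. ENST00000639716.1, which had the highest mean from CMes to CP, rose from 0.883 to 65.8 there and was not listed from M to CMes. A fall and rise of the whole gene was not shown. *KCNMB4*, an accessory subunit of that channel, had 536 at M, 1463 at CMes, 506 at CP and 1100.4 at CM. *KCNMB1*, the subunit typical of smooth muscle, rose from 26.5 to 112 at CM, and all 5 smooth muscle markers examined were also called higher there, a link that was not tested.

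**Figure D2:**
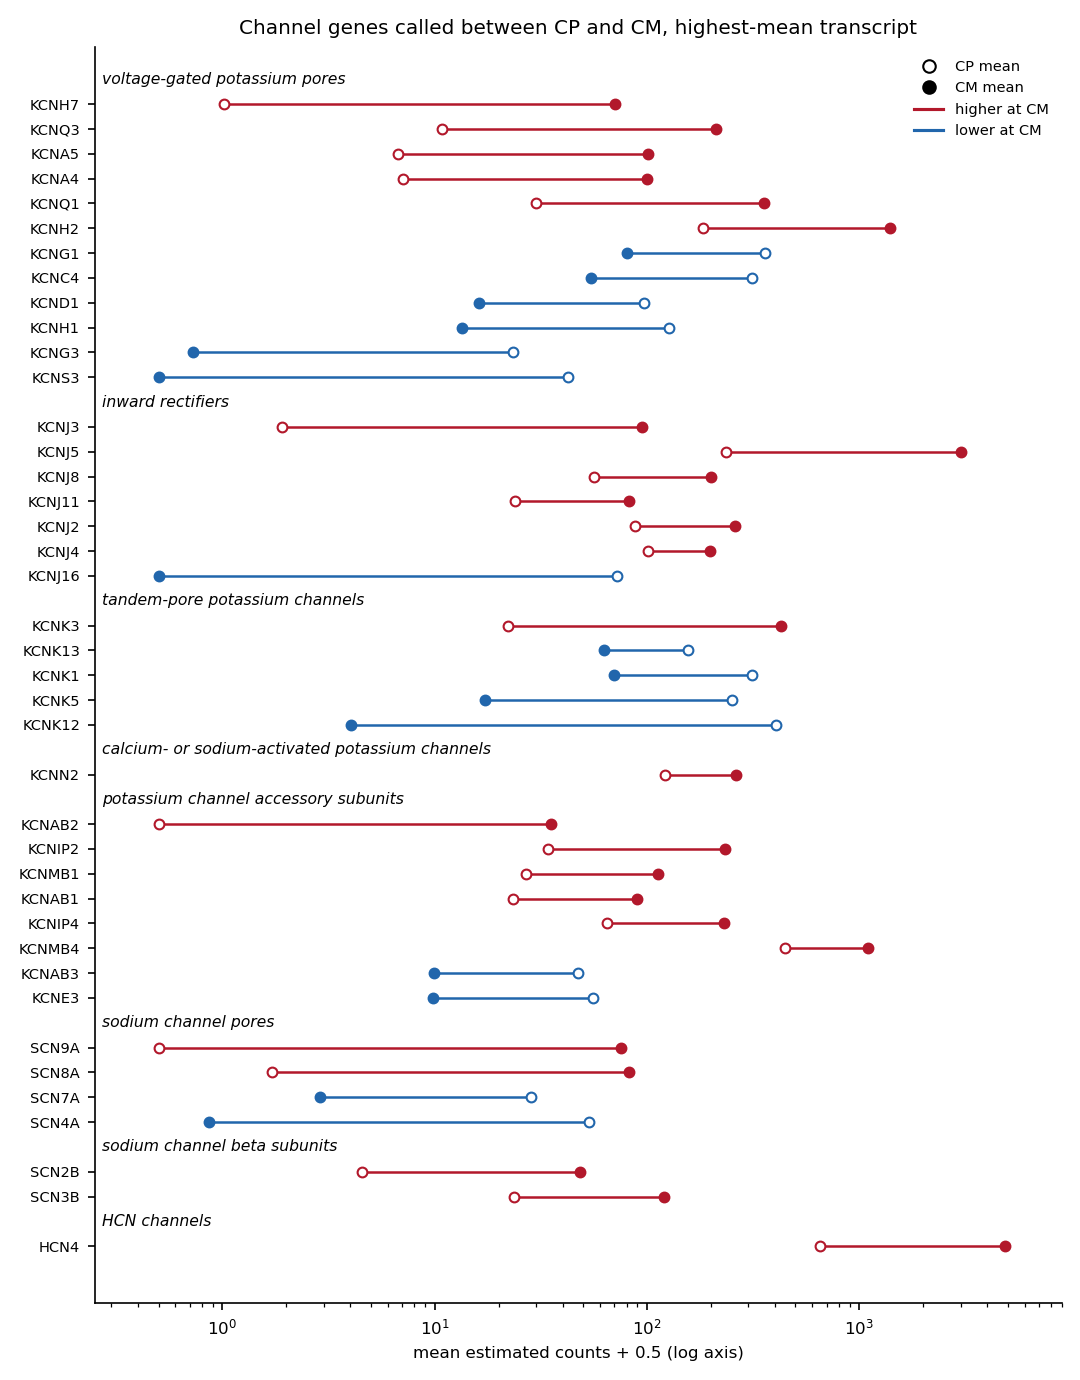
Mean estimated counts plus 0.5 (log axis) at CP (open points) and CM (filled points) for the highest-mean listed transcript of 40 channel genes called from CP to CM, grouped by role, with higher genes in red and lower genes in blue. *HCN4*, *KCNJ5* and *KCNH2* reach the highest CM levels in the plot, between 1387 and 4856 estimated counts. The plotted transcripts of *KCNS3* and *KCNJ16* lie at 0 counts at CM, while *KCNS3* ENST00000304101.9 and *KCNJ16* ENST00000392671.5 were not listed at this transition.

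At the level of genes, 27 of the 43 called genes were higher at CM by their highest-mean transcript and 16 were lower. By any called transcript, 28 channel genes were higher and 17 lower, beside 3490 higher and 3141 lower among all 6380 called genes. The higher genes had a median absolute log2 change of 3.07 and the lower genes of 3.26. In *KCNC4* and *KCNIP4*, transcripts were called in opposite directions. *KCNC4* ENST00000369787.7 fell from 312 to 54.1 estimated counts while ENST00000413138.7 went from 0.229 to 39.8. Of *KCNIP4*, an accessory subunit of Kv4 channels, 3 transcripts were higher and 1 lower. Of 27 genes taken as those of known cardiac currents, 18 were listed from CP to CM. By their highest-mean transcript, 17 were called higher and 1, *KCNK1*, lower, and the summed estimated counts of the 18 went from 1862 to 13353. Of that list, 4 genes were in no table, among them *KCNE1* and *KCNN3*. The list was drawn up with earlier results of these data known, so its counts are no independent support.

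Per kilobase of transcript, *HCN4* had the highest CM level of the listed channel transcripts, 702 estimated counts, with a range of 585 to 842 at 1 standard error. *KCNJ5* followed with 495 (424 to 579) and *KCNH2* ENST00000532957 with 411 (351 to 482), and these last ranges overlap. *KCNMB4* stood at 233 (185 to 293), *KCNH2* ENST00000262186 at 204 (174 to 239) and ENST00000330883 at 195 (156 to 244), levels that did not differ beyond their spread. This order is one of single transcripts and does not rank the genes. The level of *KCNH2* is divided among several listed transcripts, and that of *HCN4* is not.

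**Figure D3:**
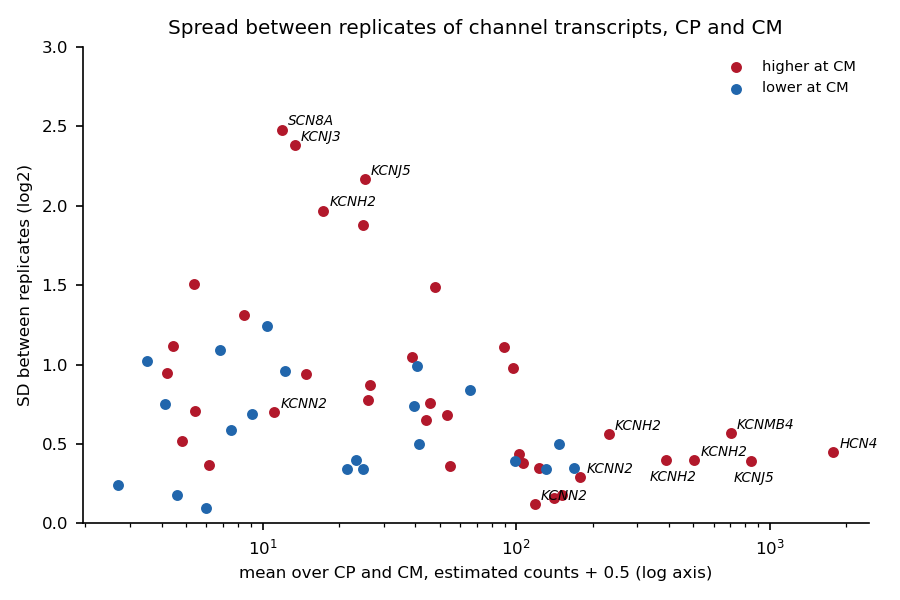
Standard deviation between replicates (log2, vertical axis) against the mean over CP and CM (estimated counts plus 0.5, log axis) for 58 channel transcripts called from CP to CM, with transcripts higher at CM in red and lower ones in blue. The transcripts of *HCN4* and *KCNMB4* and the main transcript of *KCNJ5* sit at a high level with a spread of 0.39 to 0.57, while *SCN8A* and *KCNJ3* have a transcript with a spread of 2.48 and 2.38.

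Cell type markers changed at the same transition. All 10 cardiomyocyte markers examined were higher at CM, with a sum of 11748 estimated counts at CP and 421182 at CM. All 4 listed endothelial markers (of 7) and all 5 listed endoderm and epithelial markers (of 7) were lower, with sums falling from 5244 to 782 and from 21069 to 1512. Of 10 neural markers, 4 were listed and all were higher, from 467 to 1765. Of 6 pluripotent markers, 5 were listed and lower, from 39402 to 414, and of 7 mesenchymal markers, 4 were lower and 2 higher. In bulk RNA, more cells of a type and more RNA per cell cannot be told apart, and the part of this in the channel changes was not tested. Lactate enrichment of the CMs followed the onset of beating, and its part in the marker and channel changes was not tested either.

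Before the CP stage, the changes were smaller in number and several reversed at the next transition. *KCNA1*, a Kv1 pore known from neurons (chr12:4909905-4918256), had the most pronounced course. It was at 15.8 estimated counts in iPSCs, at a mean of 0 at M, at 237 at CMes and at 2.02 at CP. The rise from M to CMes was at least 79.0-fold against the floor of 3 counts (q = 2.49e-20), and the log2 change from CMes to CP was -6.57 (standard error 0.78). *KCNA5* also peaked at CMes, with 19.5 at M, 114 at CMes and 7 at CP before its rise at CM. *KCNG1* rose at the first transitions, from 62.4 in iPSCs to 245 at M and from 262 to 763 at CMes, and fell at the next, to 404 at CP and 79.9 at CM. *KCNJ8* reached its lowest listed level at CMes, with 80.5 at M, 13.2 at CMes, 62.9 at CP and 200.2 at CM. *KCNJ6* fell at M with both transcripts, of which ENST00000609713.2 went from 116 to 27.2. *KCNS3* ENST00000304101.9 fell from 519.9 to 214 and *KCNH8* rose from 48.9 to 160.3 at M and fell from 172 to 51.9 at CMes.

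Cell type markers moved at these transitions as well. From CMes to CP, 4 of 10 neural markers were listed and all were lower, their sum falling from 2900.0 to 513, at the transition where *KCNA1* fell. All 5 listed mesenchymal markers (of 7) were higher, from 6374 to 80710.0, and all 7 listed cardiomyocyte markers (of 10) were higher, from 710.3 to 12577. Of 7 endoderm and epithelial markers, 3 were called higher and 1 lower, and the sum of the 6 listed went from 6022 to 30206. All 5 listed pluripotent markers (of 6) were lower. From M to CMes, all 5 listed mesenchymal markers were higher, from 48.7 to 2849.6, and both listed neural markers were lower, from 799 to 365. The part of these cell types in the channel changes was not tested.

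Accessory and sodium-activated subunits took part from CMes on. The cytoplasmic subunit *KCNAB3* rose from 14.7 to 53.0 at CP and fell from 46.9 to 9.37 at CM, where *KCNAB2* was at 34.8 after a mean of 0 at CP. The silent subunit *KCNV1* rose at CP with both listed transcripts, of which ENST00000524391.6 went from 70.9 to 176. The listed transcript of *KCNE4*, a gene whose protein dampens *KCNQ1* channels, fell from 118 to 50.8 at CMes, and it is annotated without a defined coding sequence. *KCNE3* fell from 140.1 to 62.1 at CP and from 55.0 to 9.28 at CM. *KCNIP4* ENST00000382148.7 was at 0 at CMes and at 72.5 at CP, at least 24.2-fold higher. *KCNT2*, a sodium-activated channel, was listed with a transcript that also lacks a defined coding sequence, which went from 40 at M to 0.252 at CMes. The tandem-pore channel *KCNK10* went from 53.3 to 6.18. Of 61 genes listed at a stage transition, 23 were listed at 1, 25 at 2, 11 at 3 and 2 at all 4, namely *KCNG1* and *KCNK5*.

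**Figure D4:**
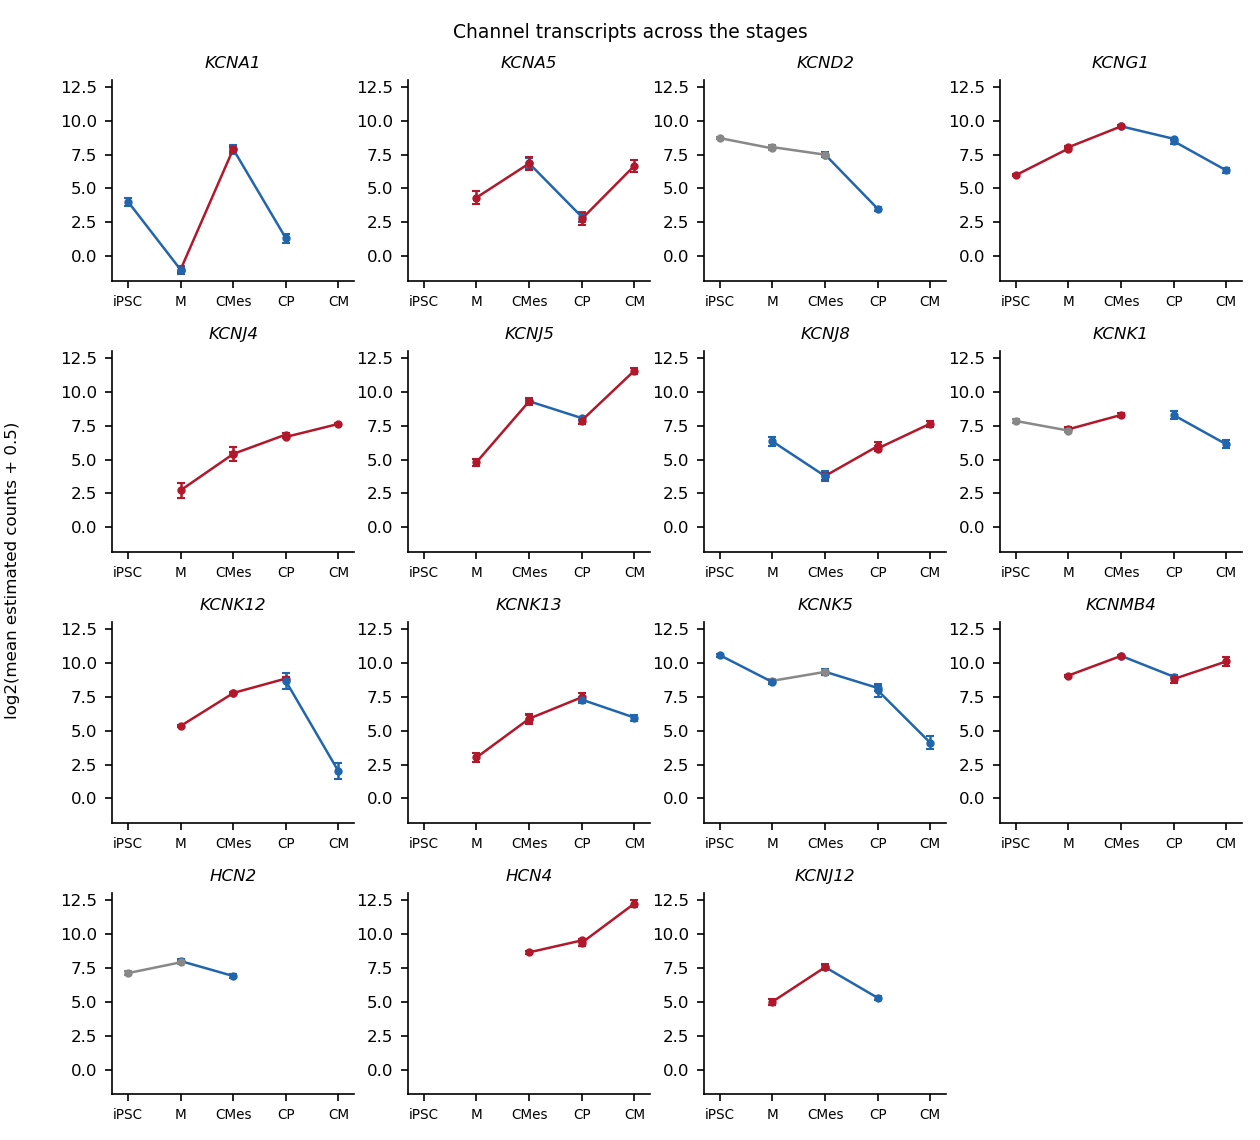
Log2 of mean estimated counts plus 0.5 (vertical axis) over the stages (horizontal axis) for 1 transcript of each of 12 channel genes listed at 3 or more transitions and of *HCN2*, *HCN4* and *KCNJ12*. Each line joins the means of 1 table, in red when called higher, blue when called lower and grey when listed but not called, with bars of 1 standard error of a group mean (n = 3), and *KCNA1* swings from 0 at M to 237 at CMes while *HCN4* climbs at both listed transitions.

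In *UBE2B-/-* CMs, more channel transcripts were called higher than lower against wild-type CMs, as was so over all transcripts. In *UBE2B-/-1*, 2 channel transcripts were lower and 7 higher, where 1.72% of all 65457 transcripts tested were called lower and 2.18% higher. In *UBE2B-/-2*, 1 was lower and 11 higher (1.53% and 2.46% of all). The higher calls were 77.8% of the channel calls and 55.9% of all calls in *UBE2B-/-1*, and 91.7% and 61.6% in *UBE2B-/-2*. Both lines were compared with the same wild-type libraries, so they are not independent, and 8 channel transcripts were listed for both. For the mean of both lines, 1 of these 8 was lower and 7 were higher, where 0.981% and 1.6% of all 65457 were called. With a t distribution on 6 degrees of freedom, 0 channel calls remained in either line or for their mean. The targeted gene is a weak check of the labels in these tables. *UBE2B* was listed for *UBE2B-/-1* with a noncoding transcript (log2 change -1.91, standard error 0.53) and was not listed for *UBE2B-/-2*, and editing need not lower the RNA.

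The lower transcript was *KCNH2* ENST00000532957, the form with the kept intron printed earlier. Its mean was 1601 in wild type, 748 in *UBE2B-/-1* and 542 in *UBE2B-/-2* (estimated counts). The mean log2 change of both lines was -1.33 (standard error 0.27, q = 7.79e-05). The coding *KCNH2* transcripts, ENST00000262186 and ENST00000330883, were not listed for either line, so a change of the coding RNA was not shown. Whether the transcripts differ in their response could not be tested, because an unlisted transcript has no value here. ENST00000532957 shares 7 exons with ENST00000262186, and the division of reads between them rests on the quantification.

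The 7 higher transcripts came from several role groups. *KCNK1*, which fell from CP to CM in wild-type cells, had 80.0 estimated counts in wild-type CMs, 206 in *UBE2B-/-1* and 241 in *UBE2B-/-2* (mean log2 change 1.47, standard error 0.33, q = 4.73e-04). *KCND1* had 17.9, 114 and 179 in the same order (2.96, standard error 0.52, q = 2.74e-06). *KCNN1*, a calcium-activated channel, had 23.7, 103 and 95.2 (2.04, standard error 0.47). The wild-type mean lay below both line means in each of these, and the bars of 1 standard error do not overlap.

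Another 3 of the higher transcripts were at or near 0 in wild-type CMs. *KCNMA1* ENST00000640969.1 had 2.00 estimated counts in wild type, 169.6 in *UBE2B-/-1* and 371 in *UBE2B-/-2*, with a standard deviation of 2.36 between replicates. *KCNH3* had 0.930, 50.7 and 48.6. *KCNS3* ENST00000403915 had a mean of 0 in wild type and was at 32.7 and 19.6 in the lines, at least 10.9-fold and 6.53-fold higher against the floor of 3 counts. Their fitted changes, between 5.10 and 7.21 in the separate lines, depend on the pseudocount. Technical variance was 42.8% of the residual variance for *KCNMA1*, 91.1% for *KCNH3* and 203% for *KCNS3*. These are values of single transcripts. *KCNS3* ENST00000304101.9 was not listed for either line, so a wild-type mean of 0 for the gene was not shown.

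No difference between the lines was detected among the transcripts listed for both. The largest difference relative to its error belonged to *KCNH2*, which was 0.46 higher in *UBE2B-/-1* on the log2 scale (standard error 0.31, adjusted q = 1 over the 1992 transcripts). By Sleuth's standard errors, 0 of the 8 differed at q up to 0.05 and 0 at an unadjusted p under 0.05. Over all 1992 transcripts listed for both lines, 0 passed the adjusted and 29 the unadjusted limit. Listing for both lines against shared wild-type libraries favours transcripts with like changes. The absence of a detected difference therefore does not show that the lines agree.

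**Figure D5:**
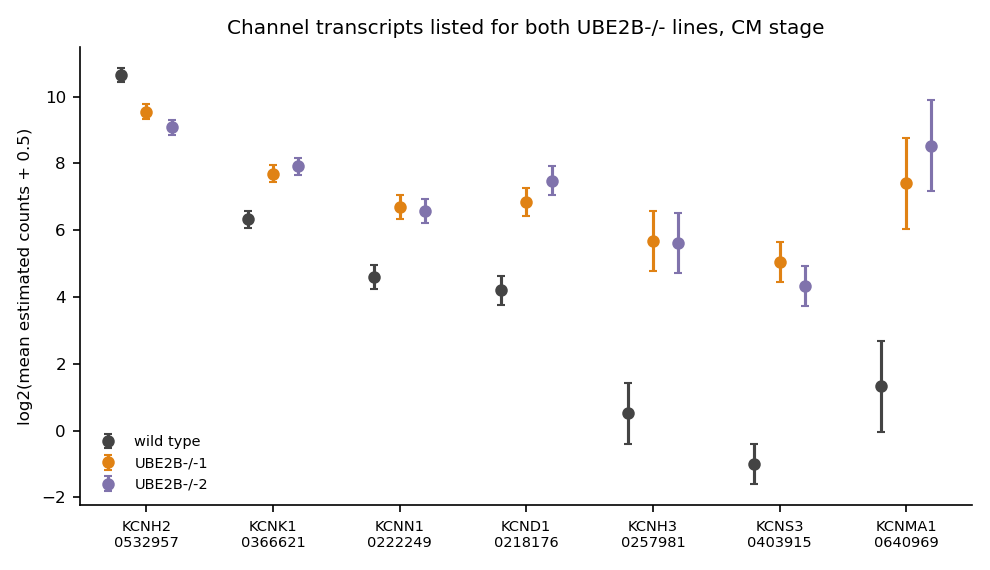
Log2 of mean estimated counts plus 0.5 (vertical axis) in wild-type (grey), *UBE2B-/-1* (orange) and *UBE2B-/-2* (purple) CMs for 7 of the 8 channel transcripts listed for both lines, labelled by gene and the last digits of the transcript, with bars of 1 standard error of a group mean (n = 3). *KCNH2* is lower in both lines, at 748 and 542 against 1601, and the other transcripts shown are higher.

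Some transcripts were listed for 1 line. *KCNAB1*, a cytoplasmic subunit of Kv1 channels, was lower in *UBE2B-/-1* (-2.01, standard error 0.59). Its value in *UBE2B-/-2* is known from the total variance to be 1 of 2 numbers, -1.11 or -0.90. *KCNK6*, a tandem-pore channel, was higher in *UBE2B-/-2* by 0.95 (standard error 0.31), with a value of 0.23 or 0.72 in *UBE2B-/-1*. *KCNMA1* ENST00000638514.1 and ENST00000618048.2 were higher in *UBE2B-/-2* by 6.69 and 5.02. For these 4 transcripts every possible value of the other line has the same sign as the listed line, and a difference between the lines was not tested.

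The channel genes *HCN4*, *KCNQ1* and *KCNJ5*, which rose from CP to CM, were listed for neither line. Absence from the tables does not show that they were unchanged. By their highest-mean listed transcript, cardiomyocyte markers were lower in the lines, 5 of 10 in *UBE2B-/-1* and 7 of 10 in *UBE2B-/-2*, with none higher. Mesenchymal markers were higher, 3 of 7 and 5 of 7, with none lower, and the neural marker *DCX* was higher in both lines. The part of the cell types in the channel changes was not tested. Endothelial markers were higher for 1 of 7 and 2 of 7, the smooth muscle markers *CNN1* and *MYOCD* were lower in both lines, and no pluripotent or sinoatrial marker was listed. The highest-mean listed transcripts of *MYL7*, *TNNI1*, *TNNT2*, *MYH6*, *PDGFRA*, *COL1A1*, *CNN1* and *KDR* in the lines differed from those used from CP to CM. For these markers a change of the whole gene was not shown. The comparison of CP with CM and those of the lines use the same wild-type CM libraries, so a value that is high there by chance raises the former and lowers the latter.

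Genes that work with the channels were counted from a list of 30. The number of these genes tested is not known, so their counts are set beside all genes with a called transcript and nothing is read from them about the list. The counts of all genes take any called transcript, so a gene can count in both directions. Each gene of the list counts once, by its highest-mean listed transcript. From CP to CM, 13 were higher and 5 lower by their highest-mean transcript, beside 3490 and 3141 of all genes. *FGF12*, which binds and modulates sodium channels, went from 20.6 to 954 (5.50, standard error 0.33), and the ankyrin *ANK2* from 217 to 1403 (2.69, standard error 0.18). *ABCC9*, the regulatory partner of *KCNJ8* and *KCNJ11*, rose from 117 to 415. In *UBE2B-/-1*, 6 of the list were lower and 3 higher, beside 858 and 1204 of all genes, and in *UBE2B-/-2*, 3 were lower and 4 higher, beside 751 and 1321. *FGF12* was lower in both lines, by -3.03 and -3.47 on the log2 scale (standard error 0.75 in each), as were *ANK2* (-1.39 and -1.15, standard error 0.35) and *ANK3* (-1.42 and -0.89, standard error 0.28). At the earlier transitions, 4 of the list were lower and 1 higher at M (all genes 860 and 648), 6 lower and 3 higher at CMes (1364 and 1844), and 6 lower and 4 higher at CP (1446 and 1704).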

How the data were processed

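Poly-A RNA-seq of 15 wild-type libraries (3 at each of 5 stages) and 6 libraries of *UBE2B-/-* CMs (3 for each of 2 lines) was analysed from 6 tables of result values. Per the study's methods, poor reads were removed with the FASTX-Toolkit, and the authors then used Kallisto (hg38) for quantification and Sleuth for the fit. The deposited tables hold the authors' p-value and q-value, the effect b, its standard error and the mean on a natural log scale, and variance scores on the squared natural log scale, for transcripts with a q-value up to 0.05. They hold 0 columns of per-sample values, so library depth is unknown and precision is the standard error of the fit. The standard error joins the technical variance with the larger of a transcript's own biological variance and a value smoothed over transcripts of like level. P-values therefore rest in part on the spread between plates of 1 parental cell line. Since each *UBE2B-/-* line is 1 clone, they do not measure the spread between clones.

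Members and lists were chosen with earlier results of these data known. The effect b was converted from natural log to log2. The effect divided by its standard error gave the authors' p-value in every row. The number of tests, group means and the spread between replicates were computed from these columns, and the steps were checked on simulated data. Calls used q up to 0.05 and a size of b no smaller than log2(1.5). The mean of both lines used 0.866 times the standard error of 1 line, with Benjamini-Hochberg adjustment over all 65457 tests, and the difference between lines was adjusted over the 1992 transcripts listed for both.

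The named genes were a list of 27 known cardiac current genes and, for each comparison, role group and direction, the called transcript with the largest ratio of change to standard error. Further genes were named after their values were seen. Where a gene has several listed transcripts, the highest mean speaks for it. Of 105 transcripts, 98 were matched by identifier without version to GENCODE 44 (GRCh38), which gave lengths, exons and classes. In 50 of 179 listed rows the technical variance exceeded the residual variance. Alternatives were other limits on b, q up to 0.01, a t distribution, a mean of at least 20 estimated counts, protein-coding transcripts and genes in place of transcripts. The ChIP-seq data of the study were not analysed here, and the results of some genes are not reported here, although they are part of the counts. Python 3 with pandas, numpy and scipy was used.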

Additional observations from a re-analysis of the deposited data

How the results depend on the processing

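No paired analysis was possible because the tables hold no values per library, and leaving out replicates was not run for the same reason. The test distribution mattered most. With a t distribution on the residual degrees of freedom (4 for a stage, 6 for the lines), which ignores what Sleuth shares between transcripts, channel calls fell to 0 from iPSC to M (from 10), 0 from M to CMes (from 27), 0 from CMes to CP (from 48), 1 from CP to CM (from 66), 0 and 0 in the *UBE2B-/-* lines (from 9 and 12) and 0 for the mean of both lines (from 8). The remaining transcript was *KCNJ5* ENST00000529694 (q = 0.0471 with that distribution). At q up to 0.01, 2 and 6 channel transcripts were called in *UBE2B-/-1* and *UBE2B-/-2*. With a mean of at least 20 estimated counts, 17 were called from M to CMes and 40 from CP to CM. Counted as genes, 43 were called from CP to CM. The other alternatives kept each total within 1.5 times its value, but not each direction. With the mean of at least 20, 21 lower and 12 higher remained called between CMes and CP (from 24 and 24), and the 11 lower from M to CMes became 4. The same limit left 11 of 24 lower transcripts from CP to CM and 7 of 11 higher ones in *UBE2B-/-2*. At q up to 0.01, the 7 lower from iPSC to M became 4, and with protein-coding transcripts alone the 3 higher there became 2 and the 24 higher from CMes to CP became 16. That setting also drops *KCNH2* ENST00000532957 from the lines, which leaves 1 lower transcript in *UBE2B-/-1* (from 2) and 0 in *UBE2B-/-2* (from 1). The counts by gene at the CMes to CP transition were 17 lower and 16 higher. The alternatives do not refit the changes, so they could not turn a direction. *KCNQ1OT1* and *KCNRG* were not listed, so leaving them out changed nothing. The median standard error of channel transcripts from CP to CM, 0.84 on the log2 scale, limits what small changes can be seen.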
